A study of Mus musculus with 12 samples.

Results

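Antigen presentation by major histocompatibility complex (MHC) class II was examined in fat depots through 7 genes: the class II chains H2-Aa, H2-Ab1 and H2-Eb1, the peptide editor chains H2-DMa and H2-DMb1, the invariant chain Cd74 and the transcriptional coactivator Ciita. They were chosen by name, and every probe that carries one of these symbols was used, which gave 8 of the 55681 probes of the array (H2-Ab1 has 2) and 7 of 20660 named genes. The samples were subcutaneous white adipose tissue (scWAT) and brown adipose tissue (BAT) of C57Bl6/J males aged 12 weeks, either Lr11-/- or their wild-type (WT) littermates, with 3 one-colour Agilent arrays for each of the 4 groups. Lr11, whose gene symbol is Sorl1, is a sorting receptor of the VPS10p family, and Lr11-/- mice lack it in the whole body. Both genotypes ate a high-fat diet (HFD) with 60% of its energy from fat, and the labels state both 4 weeks of it and feeding since weaning, so its length is uncertain. Nothing in the labels says that the arrays of a group came from separate animals, so p values measure only the spread between these arrays. Levels are log2 intensities relative to the 75th percentile of the same array, which is level 0, and a difference of 1 is a 2-fold ratio. The limma test covered 32121 probes that were above background, by Agilent's own flag, on the 3 arrays of 1 group or more, and a probe was called at a Benjamini-Hochberg adjusted p under 0.05.

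MHC class II molecules are pairs of an alpha and a beta chain that show peptides from the endosomal route to CD4+ T cells, and they are made mainly by dendritic cells, macrophages and B cells. In these cells Cd74 fills the peptide groove and leads the pair to endosomes, cathepsins cut Cd74 down to a short remnant, and H2-DM exchanges that remnant for a peptide. Ciita is the coactivator without which class II genes are barely transcribed, it is induced by interferon-gamma, and it docks on the RFX, CREB and NF-Y factors that bind the X box and Y box of class II promoters. In bulk tissue, fewer cells of a type and less RNA per cell cannot be told apart.

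The promoter sequences are shown because they hold the box pair on which Ciita acts. RefSeq (build GRCm38.p6) windows of 300 bases, from 250 before to 50 after the start of transcription, were at hand for 4 of the 7 members, H2-Aa, H2-Eb1, H2-DMb1 and, with 2 windows, H2-DMa. The letters CNNGNAAC, for the X box, and GATTGG, for the Y box, were searched on both strands, and a pair was counted where both lay on 1 strand with their first bases 20 to 40 bases apart. This pair stood in the windows of H2-Aa, H2-Eb1 and H2-DMb1, and in those of H2-Eb2, H2-Oa and H2-Ob, which code for a further beta chain and for both chains of the H2-O modulator of H2-DM. Of all 32851 windows 87 held it, which is 0.265%, whereas CNNGNAAC alone was in 39.1% and GATTGG alone in 16.1%. The letters and the spacing were chosen with these windows in view, so the share is a description. Neither H2-DMa window held the pair, nor did the window of H2-DMb2, which codes for a second beta chain of the editor, and this says only that these letters are not there in this arrangement. The stretches of 75 bases around the pair are printed 5′ to 3′ on the strand of the gene, with the X and Y letters in capitals.
H2-Aa: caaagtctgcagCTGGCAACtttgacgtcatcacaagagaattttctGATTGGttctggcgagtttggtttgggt
H2-Eb1: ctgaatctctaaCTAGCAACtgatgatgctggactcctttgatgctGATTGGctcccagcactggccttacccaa
H2-DMb1: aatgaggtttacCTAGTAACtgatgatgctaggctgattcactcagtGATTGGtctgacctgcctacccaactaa
H2-Oa: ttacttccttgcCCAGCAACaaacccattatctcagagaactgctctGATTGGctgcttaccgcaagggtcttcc
H2-Ob: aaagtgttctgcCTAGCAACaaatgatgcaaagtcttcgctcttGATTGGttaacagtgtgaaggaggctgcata
H2-Eb2: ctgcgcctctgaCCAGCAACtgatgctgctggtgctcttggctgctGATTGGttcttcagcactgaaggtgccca
These stretches lie at chr17:34287845-34287919 (minus strand) for H2-Aa, chr17:34305761-34305835 (plus strand) for H2-Eb1 and chr17:34153082-34153156 (plus strand) for H2-DMb1. Relative to the start of transcription the X letters began at -84 in H2-Aa, -94 in H2-Eb1 and -97 in H2-DMb1, and the Y letters followed 35, 34 and 35 bases after the first X letter. The further 3 lie at chr17:34092288-34092362 for H2-Oa, chr17:34238803-34238877 for H2-Ob and chr17:34325528-34325602 for H2-Eb2, all on the plus strand, with the letters 35, 32 and 34 bases apart.

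The arrays were checked through the deleted gene and through genes of fat and muscle, some of which also differed between arrays of the same group. Sorl1, the deleted gene, was at 0.91, 0.96 and 1.15 in WT scWAT, at -3.57, -3.56 and -2.87 in Lr11-/- scWAT, at 0.71, 1.21 and 0.11 in WT BAT and at -3.93, -2.45 and -2.48 in Lr11-/- BAT, so every array matched its genotype label (whether the probe lies in the deleted part is not given in the sources used here). Replicate 1 of each group belongs to a first array series and replicates 2 and 3 to a second, and the first-series arrays of scWAT and of BAT were each on a slide of their own. Ucp1, the uncoupling protein of brown fat, was at 9.45 to 10.07 on the BAT arrays, at -4.63, -4.52 and 2.92 in WT scWAT and at 4.39, 9.75 and 10.05 in Lr11-/- scWAT, which reaches the BAT range on 2 arrays. Ucp1 was called higher in Lr11-/- than in WT scWAT, by 10.14 (SE 1.92, adjusted p by limma 0.0326). In that comparison 3.4% of all tested probes were higher and called. With each array left out in turn, 0 to 4 of 5 brown adipocyte genes were higher and called in it. Adipoq, the adipocyte hormone adiponectin, was at 3.84 on WT scWAT replicate 2 and between 6.61 and 8.55 on the other 11 arrays. The mean of 3 skeletal muscle genes was 6.94 to 9.62 on 5 arrays (WT scWAT replicate 3, WT BAT replicates 1 and 3, and replicate 1 of both Lr11-/- groups) and -2.22 to -0.80 on the other 7. The 75th percentile of the intensity was 374 to 632, and 32377 to 37002 spots per array were well above background.

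All 8 member probes were well above background on all 12 arrays, none of their spots was saturated or marked as an outlier, and all 7 genes were tested. H2-Aa, the alpha chain of the H2-A molecule, was at 4.01, 1.5 and 1.44 in WT scWAT, 2.51, 2.89 and 2.57 in Lr11-/- scWAT, 1.88, 1.35 and 3.04 in WT BAT and 1.68, 2.21 and 2.28 in Lr11-/- BAT. H2-Ab1, its beta chain, was at 7.0, 5.13 and 5.22 in WT scWAT, 5.85, 6.29 and 6.0 in Lr11-/- scWAT, 4.61, 4.81 and 6.45 in WT BAT and 4.55, 5.62 and 5.68 in Lr11-/- BAT. In both genes WT scWAT replicate 1 and WT BAT replicate 3 stood above all other arrays. In scWAT the other 2 WT arrays lay below all 3 Lr11-/- arrays, so that the WT range enclosed the Lr11-/- range. The second probe of H2-Ab1 followed the first over the 12 arrays (Pearson r of 0.997) and differed from it by at most 0.25. H2-Eb1, the beta chain of the H2-E molecule, whose alpha chain is not made in C57BL/6 mice, was at 6.89, 4.73 and 5.08 in WT scWAT, 5.59, 6.31 and 5.89 in Lr11-/- scWAT, 4.52, 4.81 and 6.38 in WT BAT and 4.47, 5.58 and 5.62 in Lr11-/- BAT. It had the same 2 highest arrays as H2-Aa and H2-Ab1.

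Cd74 showed this order too. The gene of the invariant chain was at 5.83, 3.64 and 3.95 in WT scWAT, 4.76, 4.69 and 4.47 in Lr11-/- scWAT, 3.91, 3.57 and 5.08 in WT BAT and 3.64, 4.27 and 4.43 in Lr11-/- BAT. H2-DMa, the alpha chain of the peptide editor, was at 1.26, -0.61 and -0.77 in WT scWAT, -0.10, 0.01 and -0.10 in Lr11-/- scWAT, -0.48, -0.93 and 0.60 in WT BAT and -0.87, -0.14 and -0.30 in Lr11-/- BAT. In both genes the 3 Lr11-/- scWAT arrays lay close together (SD 0.06 for H2-DMa and 0.15 for Cd74), between the high WT array and the 2 low ones. H2-DMb1, the beta chain of the editor, was at 3.73, 2.53 and 1.32 in WT scWAT, 1.77, 2.31 and 1.88 in Lr11-/- scWAT, 0.36, 0.41 and 2.12 in WT BAT and 0.09, 1.04 and 0.94 in Lr11-/- BAT. Its second-highest array was WT scWAT replicate 2, where H2-Aa, H2-Ab1, H2-Eb1, H2-DMa and Cd74 had WT BAT replicate 3, and 5 of the 6 BAT arrays lay below all scWAT arrays. Ciita was at -1.46, -1.53 and -2.72 in WT scWAT, -2.38, -1.90 and -2.20 in Lr11-/- scWAT, -2.53, -0.93 and -1.90 in WT BAT and -2.78, -2.99 and -2.54 in Lr11-/- BAT. Its highest array was WT BAT replicate 2, on which H2-Aa, H2-DMa and Cd74 had their lowest values of all 12.

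**Figure D1:**
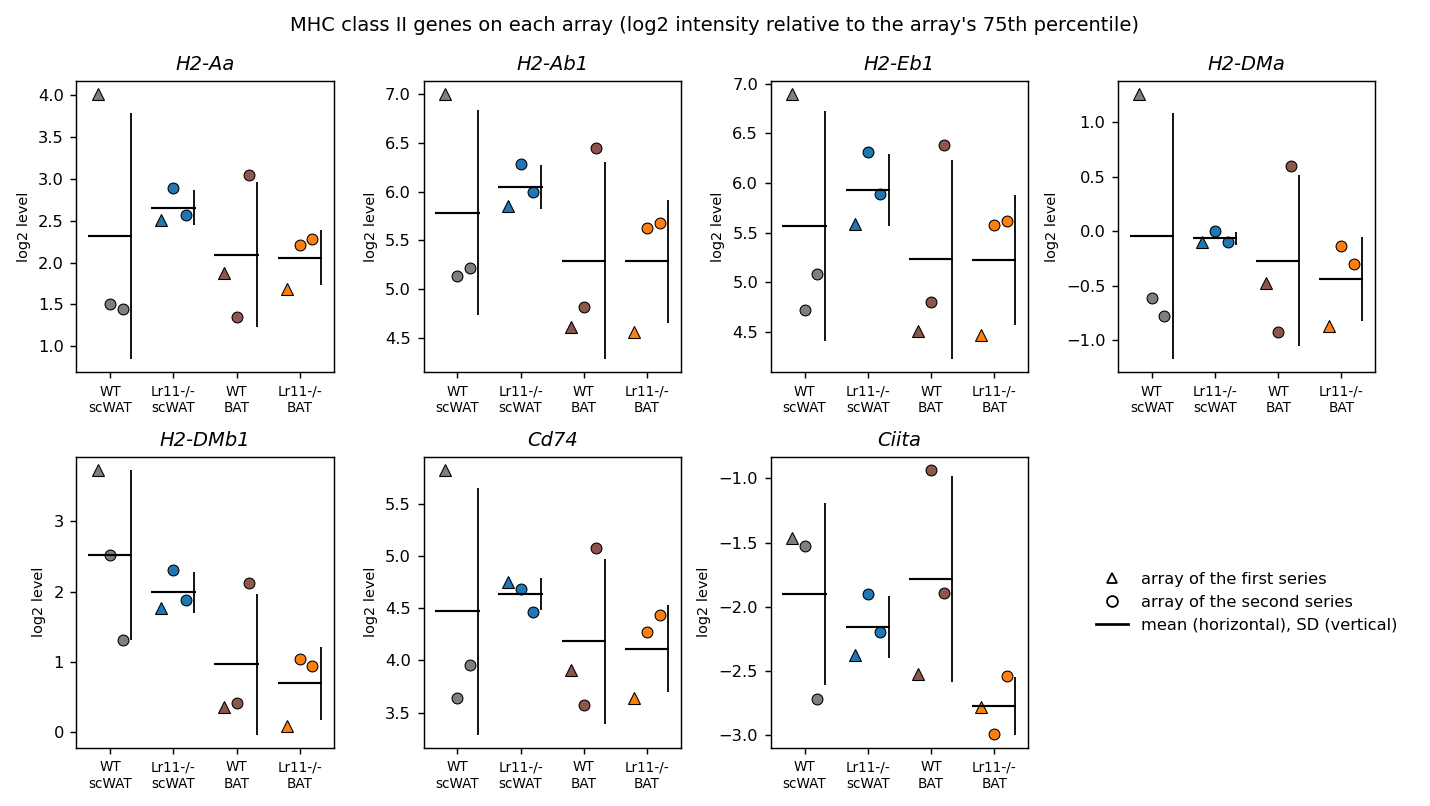
Levels of the 7 MHC class II genes on each of the 12 arrays, as log2 intensity relative to the 75th percentile of the array, by group, with triangles for the first array series, circles for the second, a horizontal line at the mean and a vertical line of ± SD (n = 3). WT scWAT replicate 1 (triangle) is the highest array for 6 of the 7 genes, and for Ciita it is WT BAT replicate 2.

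From the lowest to the highest array the members ranged over 2.06 (Ciita) to 3.64 (H2-DMb1) on the log2 scale, which is 4.17-fold to 12.4-fold. Within groups their residual SD was 0.87 for H2-Aa, 0.85 for H2-Eb1, 0.84 for H2-DMb1, 0.80 for H2-Ab1, 0.75 for Cd74, 0.71 for H2-DMa and 0.56 for Ciita, against a median of 0.43 over all tested probes. Between 67.9% (Ciita) and 87.3% (H2-Aa) of tested probes had a smaller residual SD. In scWAT all 7 members had a larger SD in WT than in Lr11-/- arrays (H2-Aa 1.47 against 0.21, Cd74 1.18 against 0.15), as had 65.7% of tested probes. The same was so of all 7 in BAT (H2-Aa 0.87 against 0.33), with 56.6% of tested probes. Whether the spread itself differed between genotypes was not tested.

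Lr11-/- and WT were compared first in scWAT. The means of H2-Aa were 2.66 ± 0.21 in Lr11-/- and 2.32 ± 1.47 in WT (SD, n = 3 each), a difference of 0.34 (SE 0.64). Differences of the other members were 0.36 (SE 0.62) for H2-Eb1, 0.26 (SE 0.59) for H2-Ab1, 0.16 (SE 0.55) for Cd74, -0.02 (SE 0.53) for H2-DMa, -0.25 (SE 0.43) for Ciita and -0.54 (SE 0.61) for H2-DMb1. By limma 0 of the 7 members passed the threshold, 0 had an unadjusted p under 0.05, and the adjusted p values ran from 0.602 (H2-DMb1) to 0.982 (H2-DMa). Over all tested probes 5.27% were called in this comparison (3.4% higher in Lr11-/-) and 27.6% had an unadjusted p under 0.05. The groups overlapped in all 7 members, while 20.4% of tested probes had groups that did not overlap. The 95% interval for H2-Aa reached from -1.07 to 1.75, so changes of up to about these sizes in either direction are within the error.

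The direction in scWAT was not the same in the 2 array series. In the first series, with 1 array of each genotype, the Lr11-/- array was lower in all 7 members, with differences of -1.96 in H2-DMb1, -1.5 in H2-Aa, -1.36 in H2-DMa, -1.3 in H2-Eb1, -1.15 in H2-Ab1, -1.07 in Cd74 and -0.92 in Ciita. In the second series, with 2 arrays of each, Lr11-/- was higher by 1.26 in H2-Aa, 1.2 in H2-Eb1, 0.97 in H2-Ab1, 0.78 in Cd74, 0.64 in H2-DMa, 0.17 in H2-DMb1 and 0.08 in Ciita. In 5 of the 7, all but H2-DMb1 and Ciita, the second-series arrays of the 2 genotypes did not overlap. The share of all tested probes without overlap in these 2 arrays against 2 was not computed. These 5 genes also followed each other across the arrays, so the count is only a description. A limma fit to the second series alone called 0 members (adjusted p of 0.128 for H2-Aa and 0.134 for H2-Eb1) among 7259 probes called in all. Without WT scWAT replicate 1 the difference by limma was 1.19 for H2-Aa (adjusted p = 0.0901) and 1.03 for H2-Eb1 (adjusted p = 0.218). In the same fit it was 0.87 for H2-Ab1 (adjusted p = 0.273) and 0.84 for Cd74 (adjusted p = 0.188). Again 0 members were called, among 4409 probes called in all.

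**Figure D2:**
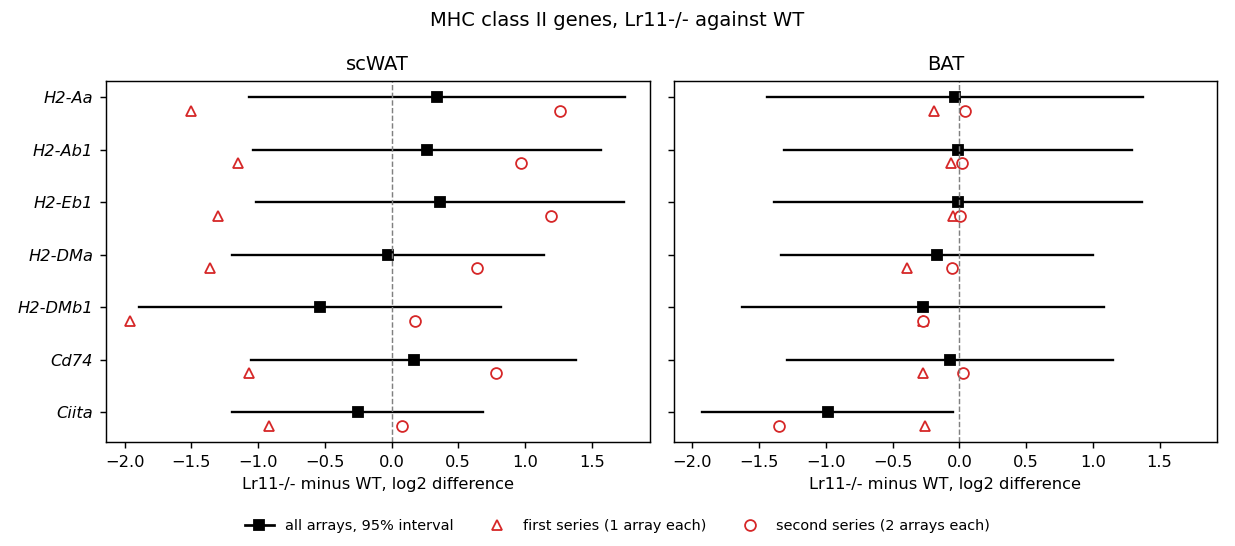
Lr11-/- minus WT difference of each member, in log2 units, in scWAT and in BAT. Squares with 95% intervals are the limma fit to all 12 arrays, triangles the single pair of first-series arrays and circles the means of the second series. In scWAT the triangles lie left of 0 and the circles right of it for all 7 genes, and in BAT only the interval of Ciita leaves out 0.

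In BAT the differences were smaller than their SE in 6 of the 7 members. They were -0.01 for H2-Ab1 (SE 0.59) and H2-Eb1 (SE 0.62), -0.03 for H2-Aa (SE 0.64), -0.07 for Cd74 (SE 0.55), -0.17 for H2-DMa (SE 0.53) and -0.27 for H2-DMb1 (SE 0.61). Ciita had a mean of -2.77 ± 0.23 in Lr11-/- and -1.79 ± 0.80 in WT (SD, n = 3 each), a difference of -0.99 (SE 0.43, 95% interval -1.93 to -0.04). Its groups did not overlap, by a gap between -2.53 and -2.54, whereas 12% of tested probes had groups that did not overlap. The unadjusted p of Ciita was 0.0417 and its two-sided exact permutation p was 0.1, the smallest that 3 arrays against 3 can give, but by limma its adjusted p was 0.999988. By limma 0 of 7 members passed the threshold, 1 had an unadjusted p under 0.05, and 0.0187% of all tested probes were called, with 2.12% at an unadjusted p under 0.05. The Ciita difference was -0.26 in the first series, -1.35 in the second and -0.56 without WT BAT replicate 2, and it had the same sign in all alternatives tried. Without the 5 arrays high in skeletal muscle genes, which leaves 1 WT BAT array, the Ciita difference was -1.83, and the other 6 members turned to differences of 0.58 (H2-DMb1) to 0.89 (H2-Aa), with 0 of 7 called. The interaction, the genotype effect in scWAT minus that in BAT, ran from -0.26 (H2-DMb1) to 0.73 (Ciita, SE 0.60), with 0 of 7 members and 0% of all tested probes called, at adjusted p values of 0.661 or more for the members. By the same limma test 0 members and 11% of all tested probes had an unadjusted p under 0.05 there.

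The depots were compared within each genotype. WT BAT was lower than WT scWAT in H2-DMb1, with a difference of -1.56 (SE 0.61), from 2.52 ± 1.21 to 0.97 ± 1.0 (SD, n = 3 each), with a 95% interval of -2.92 to -0.20. Its unadjusted p was 0.0281 and its adjusted p by limma 0.0848. The other differences in WT were -0.49 (SE 0.59) for H2-Ab1, -0.33 (SE 0.62) for H2-Eb1, -0.29 (SE 0.55) for Cd74, -0.23 for H2-Aa (SE 0.64) and H2-DMa (SE 0.53), and 0.12 (SE 0.43) for Ciita. Thus 0 of 7 members were called by limma where 24.8% of all tested probes were (15.7% higher and 9.13% lower in BAT), and 1 had an unadjusted p under 0.05, as had 40.1% of all tested probes. H2-DMb1 passed the threshold when WT scWAT replicate 3 was left out (-2.16, adjusted p = 0.0219) and when WT BAT replicate 3 was left out (-2.14, adjusted p = 0.0383), and it was lower in BAT under all alternatives tried. Without WT scWAT replicate 1, H2-Aa, H2-Ab1, H2-Eb1, H2-DMa and Cd74 turned to higher means in BAT, by 0.12 (H2-Ab1) to 0.62 (H2-Aa). The same 5 genes were also higher in BAT with the slide as a block, by 0.12 (H2-Ab1) to 0.31 (H2-Aa).

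In Lr11-/- mice all 7 members had a lower mean in BAT than in scWAT. The differences were -1.29 (SE 0.61) for H2-DMb1, -0.76 (SE 0.59) for H2-Ab1, -0.71 (SE 0.62) for H2-Eb1, -0.61 (SE 0.43) for Ciita, -0.60 (SE 0.64) for H2-Aa, -0.52 (SE 0.55) for Cd74 and -0.37 (SE 0.53) for H2-DMa. The arrays of both depots did not overlap in 6 of the 7, all but H2-Eb1, where 9.17% of tested probes had all BAT arrays below all scWAT arrays. For each of those 6 the two-sided exact permutation p was 0.1, the smallest this design allows. These genes followed each other across the arrays, Ciita less closely, so the 6 results are not independent of each other. By limma 0 of 7 members passed the threshold (adjusted p of 0.570 for H2-DMb1 and 0.692 to 0.849 for the others), 0 had an unadjusted p under 0.05 against 9% of all tested probes, and 0.0405% of all tested probes were called. The genotype and depot comparisons share arrays, so these directions are not independent of those above.

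**Figure D3:**
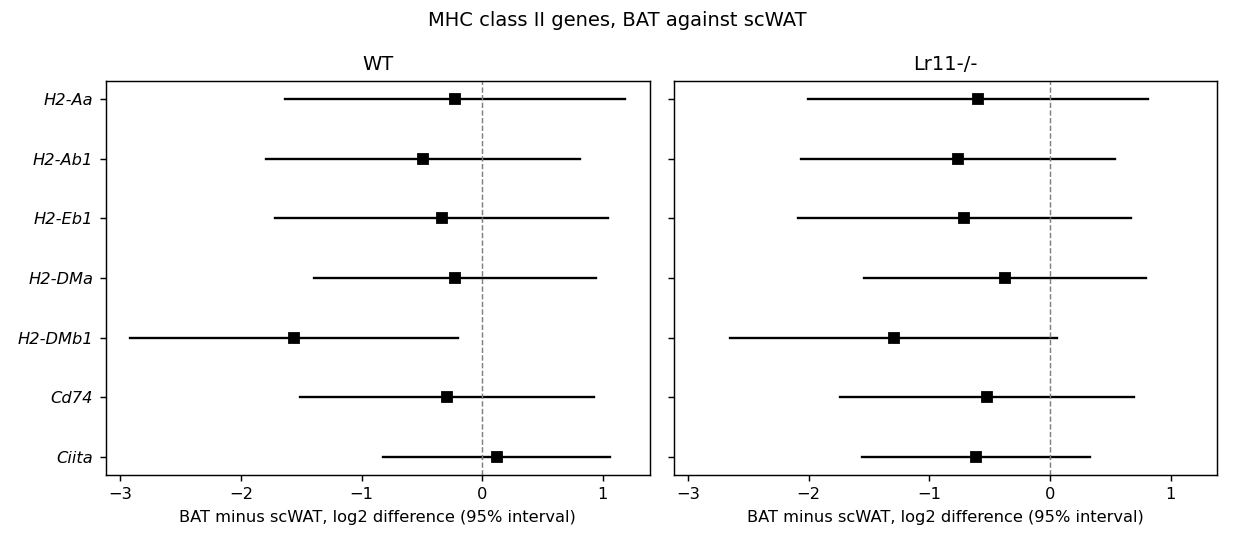
BAT minus scWAT difference of each member, in log2 units with the 95% interval of the limma fit, in WT and in Lr11-/- mice (n = 3 arrays a group). H2-DMb1 is farthest to the left in both genotypes, at -1.56 and -1.29, and only its WT interval leaves out 0.

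The members followed each other across the 12 arrays, with Ciita less close to the rest. Over the 12 arrays Pearson r between pairs of the other 6 ran from 0.73 to 0.99 (15 pairs), and from 0.84 to 0.99 after each group was centred on its own mean. Pairs with Ciita ran from 0.15 to 0.44 (6 pairs). Ciita had its highest level, -0.93, on WT BAT replicate 2, where the mean of the other 6 was at -0.84 relative to its mean over the 12 arrays. The r of Ciita without that array was not computed. The arrays share groups, slides and scaling, so these values are descriptions and carry no p. Of 19164 other tested probes with a symbol, the one most like the mean of the members over the 12 arrays was that of Parp9, an ADP-ribosyltransferase family member induced by interferon, with r of 0.96. It was followed by Adgre4 (0.93), an adhesion receptor of myeloid cells, B2m (0.93), the light chain of MHC class I, Clec4b1 (0.93), a C-type lectin, Gimap1 (0.92), a GTPase of lymphocytes, Psmb10 (0.92), a subunit of the immunoproteasome, Phf11b (0.92), Cd320 (0.91), H2-K1 (0.91), a class I heavy chain, and Phf11a (0.91). With each group centred, the 10 nearest genes were Gimap4, Psmb10, B2m, Parp9, Rnase6, Gimap9, Adgre4, Tnfsf10, Apex2 and Adar, with r from 0.97 down to 0.94. B2m was at 7.84, 6.54 and 6.16 in WT scWAT, 6.89, 7.54 and 6.98 in Lr11-/- scWAT, 6.32, 6.25 and 7.59 in WT BAT and 5.98, 6.86 and 7.25 in Lr11-/- BAT, so its 2 highest arrays were those on which H2-Aa, H2-Ab1 and H2-Eb1 stood highest.

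Gene lists of the pathway and of cell types were read from the brightest tested probe of each gene. The 9 genes of MHC class I presentation moved most like the class II members (r of 0.87 between the list mean and the member mean over 12 arrays, 0.90 with groups centred). In this list 0 of 9 genes were called in either genotype comparison, and the median difference in scWAT was 0.14 against 0.04 over all tested probes. Psmb9, a subunit of the immunoproteasome, differed by 0.58 (SE 0.63) and B2m by 0.29 (SE 0.51) in scWAT. The list of 8 dendritic cell genes had r of 0.78 (0.87 with groups centred), that of 9 T lymphocyte genes 0.70 and that of 7 genes of the interferon-gamma route 0.68. Batf3, a transcription factor of cross-presenting dendritic cells, was at 1.41 on WT scWAT replicate 1 and between -2.00 and -0.37 on the other 11 arrays, and Clec9a, a receptor of the same cells, was highest on WT BAT replicate 3 at -1.98. Over the 12 arrays r with the member mean was 0.81 for Batf3 and 0.80 for Clec9a. It was 0.52 for Itgax, 0.45 for Cd209a and Clec10a, 0.37 for Flt3, 0.36 for Ccr7 and -0.05 for Zbtb46. Of the 8 dendritic cell genes 3 were highest on WT scWAT replicate 1, 3 on WT scWAT replicate 2, and 1 each on WT BAT replicates 1 and 3. Of the 7 genes of the interferon-gamma route 4 were highest on WT scWAT replicate 2 and 2 on WT BAT replicate 3, where the list was 0.74 and 0.50 above its mean over the 12 arrays. These marker levels stood beside the class II levels, and their part in them was not tested.

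Macrophage and general leukocyte genes were mostly highest on another array than the class II members. Of the 9 macrophage genes 8 and of the 3 general leukocyte genes 3 were highest on WT scWAT replicate 2, on which the list means were 2.25 and 3.05 above their means over 12 arrays while that of the class II members was -0.22. The mean level of the macrophage list was 1.43 to 3.62 in WT scWAT, 1.27 to 1.83 in Lr11-/- scWAT, 0.53 to 0.96 in WT BAT and 0.55 to 1.03 in Lr11-/- BAT. Leaving aside WT scWAT replicate 2, the macrophage and general leukocyte lists were highest on WT scWAT replicate 1, at 0.84 and 1.06. These values are relative to the same means over 12 arrays, and the class II members stood at 1.48 there. Over the 12 arrays r with the member mean was 0.38 for macrophage genes and 0.36 for the 7 B lymphocyte genes tested. For macrophage and general leukocyte genes r without WT scWAT replicate 2 was not computed. All 7 B lymphocyte genes were well above background on each WT scWAT array, against 6, 5 and 4 on the Lr11-/- scWAT arrays. Genes that passed the filter only through a group where they are high can set such a count there and can widen a gap between list means. Relative to its mean over the 12 arrays, the B lymphocyte list was at 0.52 to 0.64 in WT scWAT and at -0.36 to -0.22 in Lr11-/- scWAT, with 0 of 7 genes called between them (0 to 1 lower with each array left out in turn, and 2 without the 5 arrays high in skeletal muscle genes).

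**Figure D4:**
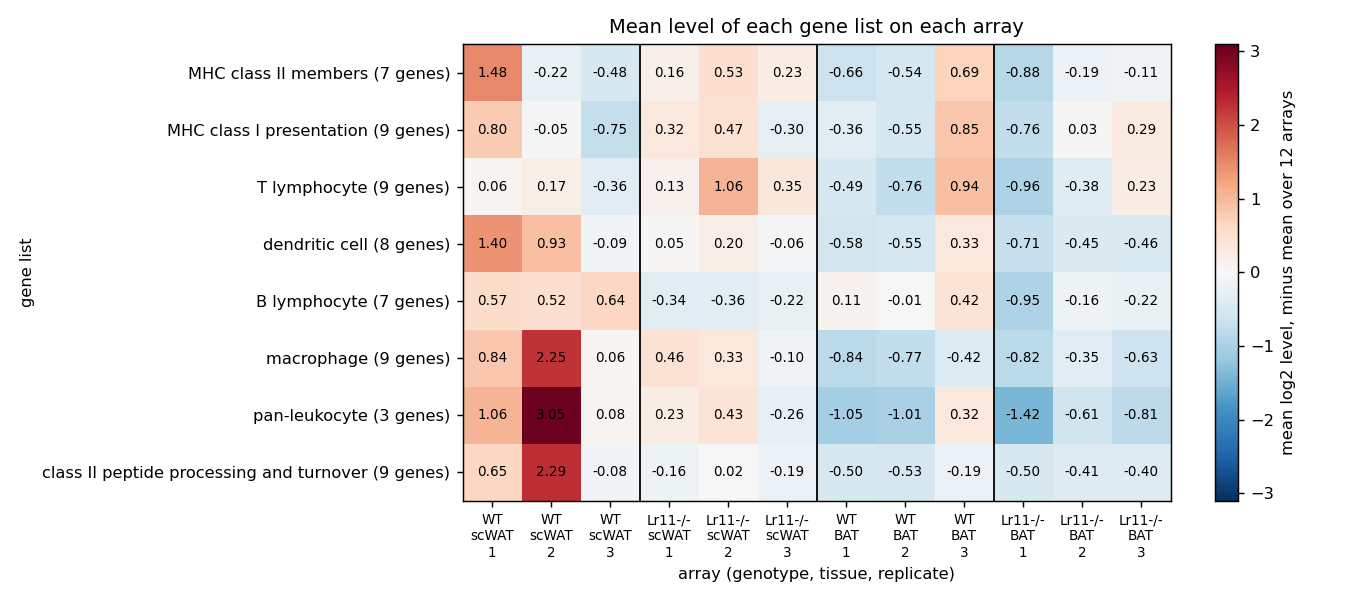
Mean log2 level of the tested genes of each list on each array, minus the mean of that list over the 12 arrays. The class II members reach 1.48 on WT scWAT replicate 1 and 0.69 on WT BAT replicate 3, whereas the macrophage, general leukocyte and peptide processing lists reach 2.25, 3.05 and 2.29 on WT scWAT replicate 2.

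**Figure D5:**
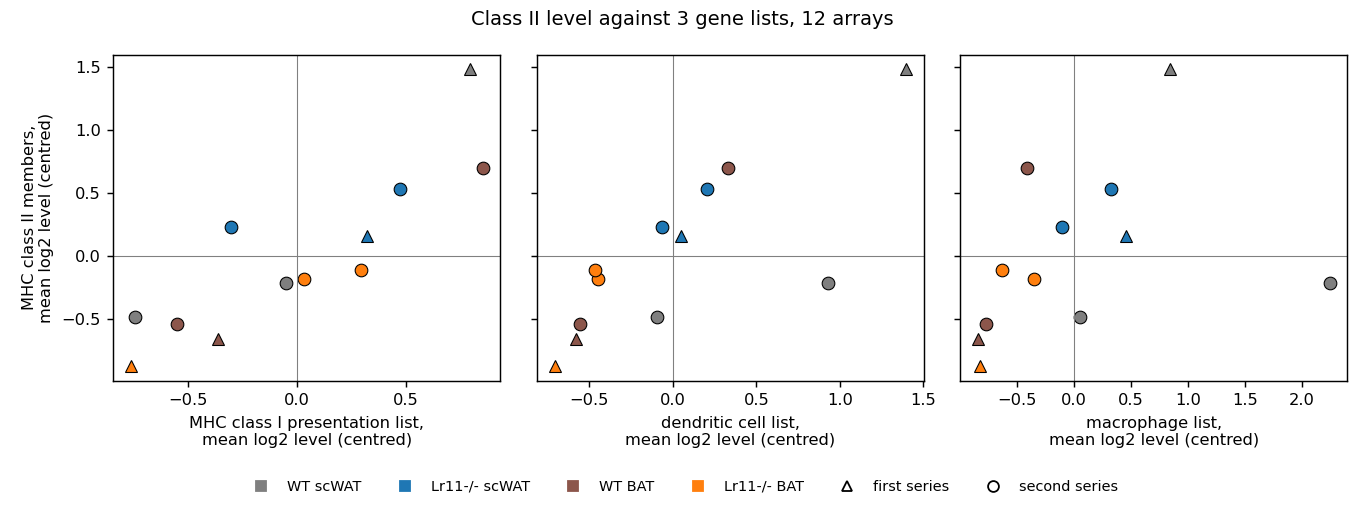
Mean level of the class II members against that of the MHC class I, dendritic cell and macrophage lists, each centred over the 12 arrays, in log2 units, with colours for groups and triangles for the first array series. Pearson r is 0.87, 0.78 and 0.38 from left to right, and WT scWAT replicate 2, at 2.25 on the macrophage axis, lies at -0.22 on the class II axis.

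Most genes that prepare class II peptides were highest on another array than the class II chains. The list of 9 held cathepsins, which cut Cd74 and antigens, the thiol reductase Ifi30, the asparaginyl protease Lgmn and the ubiquitin ligases Marchf1 and Marchf8, which can turn class II molecules over. Of its 9 genes 8 were highest on WT scWAT replicate 2, and r with the member mean was 0.26. In scWAT 0 of 9 were called between genotypes and all 9 differences were below 0, with a median of -1.31. The mean of the class II peptide processing and turnover list was 5.03, 6.66 and 4.29 in WT scWAT and 4.18 to 4.39 in Lr11-/- scWAT, and without WT scWAT replicate 2 the median difference was -0.43. When each array was left out in turn, 0 to 3 of the 9 were lower and called, and 2 were without the 5 arrays high in skeletal muscle genes. Ctsl, the cathepsin that cuts Cd74 in thymic epithelium, differed by -1.83 (SE 0.48, adjusted p by limma 0.0539), Ctss, its counterpart in antigen-presenting cells, by -1.73 (SE 1.0), Ctsh by -1.58 (SE 0.51) and Lgmn by -1.37 (SE 0.60). In WT mice 3 of the 9 fell in BAT against scWAT, Ctsl with a difference of -2.39 (SE 0.48), Ctsh of -2.30 (SE 0.51) and Lgmn of -1.93 (SE 0.60), with adjusted p values by limma of 0.00823, 0.0118 and 0.0405, where 9.13% of all tested probes were lower and called. With arrays left out one by one, 2 to 5 were lower and called in that comparison, and without the 5 arrays high in skeletal muscle genes 2 were. In BAT between genotypes 0 of 9 were called, with a median of 0.07.

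The factors that bind the X and Y boxes were measured by 6 tested genes, since Rfx5 was not above background on all 3 arrays of any group. Of these 6, 1 was called between genotypes in scWAT, where 3.4% of all tested probes were higher and called. Rfxank, the ankyrin subunit of RFX, was higher in Lr11-/- scWAT by 1.29 (SE 0.27, adjusted p by limma 0.0378). It stood at -0.20, -1.05 and -0.29 in WT scWAT, 0.77, 0.64 and 0.92 in Lr11-/- scWAT, 1.16, 1.59 and 1.54 in WT BAT and 1.67, 1.05 and 1.35 in Lr11-/- BAT. The call was lost when any of the 6 BAT arrays, WT scWAT replicate 2 or Lr11-/- scWAT replicate 2 or 3 was left out. In WT mice Rfxank was higher in BAT than in scWAT by 1.94 (SE 0.27, adjusted p = 0.00293) and Nfyc, a subunit of NF-Y, by 1.01 (SE 0.27, adjusted p = 0.0216), where 15.7% of all tested probes were higher and called. In that comparison 1 to 2 of the 6 were higher and called with each array left out, and 1 without the 5 arrays high in skeletal muscle genes. The remaining promoter factors were not called in either of these comparisons, and 0 of 6 were called in BAT between genotypes. The list mean of these factors ran against that of the class II members over the 12 arrays (r of -0.40, -0.07 with groups centred).

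Among the 5 further class II genes, H2-Oa and H2-Ob differed by -0.51 (SE 0.69) and -0.25 (SE 0.38) in scWAT between genotypes, and 0 of 3 tested were called in any comparison (0 to 1 between depots in WT with each array left out). H2-Eb2 was well above background on all 3 WT scWAT arrays but on 1 of 3 in Lr11-/- scWAT, 1 of 3 in WT BAT and 0 of 3 in Lr11-/- BAT. Its probe was tested only through the WT scWAT arrays, so the 3 of 3 there was set by the filter. Of 6 costimulation genes 0 were called between genotypes, with Cd40 at -1.48 (SE 0.57) and Icosl at -1.08 (SE 0.32) in scWAT, where 0 to 1 were lower and called with each array left out and 1 without the 5 arrays high in skeletal muscle genes. In WT mice Icosl, the ligand of the T cell receptor Icos, fell by 1.39 (SE 0.32, adjusted p by limma 0.0135), and Cd80, a ligand of Cd28, fell by 1.3 (SE 0.39, adjusted p by limma 0.0351) in BAT against scWAT, a comparison in which 9.13% of all tested probes were lower and called. The count of 2 of 6 became 0 to 4 with each array left out and 0 without the 5 arrays high in skeletal muscle genes. Of the 7 tested genes of the interferon-gamma route 0 were called between genotypes in either tissue, with Socs1, an inhibitor of Jak kinases, at -1.11 (SE 0.62) and Ifngr2, a receptor chain, at -0.78 (SE 0.36) in scWAT. In scWAT 0 to 1 of them were lower and called with each array left out, and 2 without the 5 arrays high in skeletal muscle genes. Ifng itself was not among the tested probes.

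Cell type lists were also compared between depots in WT mice, where 4 of 9 macrophage genes fell in BAT and 0 rose, against 9.13% of all tested probes lower and 15.7% higher. The differences were -2.09 (SE 0.48) for Mrc1, a mannose receptor, -1.81 (SE 0.57) for Adgre1, which codes for F4/80, and -1.57 (SE 0.41) for Csf1r, the growth factor receptor of macrophages. The fourth was Cd163, which was not well above background on any WT BAT array and was at least 3.33-fold lower there. In this order the adjusted p values by limma were 0.0127, 0.0413, 0.0204 and 0.0151. When each array was left out in turn 2 to 7 of the 9 were lower and called, and without the 5 arrays high in skeletal muscle genes 1 was. Of 8 dendritic cell genes Itgax, an integrin that macrophages carry too, fell by 3.24 (SE 1.06) and Clec10a, a lectin, fell by 2.36 (SE 0.52), while Zbtb46, a transcription factor of dendritic cells, rose by 1.02 (SE 0.33), with adjusted p values by limma of 0.0481, 0.0112 and 0.0445. Cd4, the coreceptor of the T cells that class II serves, rose by 1.31 (SE 0.25, adjusted p by limma 0.00691), and it was the 1 gene called of 9 T lymphocyte genes. Without the 5 arrays high in skeletal muscle genes 0 dendritic cell and 0 T lymphocyte genes were higher and called, while 2 and 1 were lower. With each array left out in turn, 0 to 1 dendritic cell genes were higher and 1 to 2 lower. In the same comparison the median over the 7 class II members was -0.29, against -1.57 for the macrophage genes and 0.07 for all tested probes.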

How the data were processed

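Per the file headers, the deposited values are spot intensity readings of 12 one-colour arrays, from which Agilent Feature Extraction 10.10.1.1 had removed the background and spatial trends. A table of the whole series held the same intensity values (largest difference 0). Here control spots and outlier spots (128 to 181 per array) were left out, intensities were taken to log2, spots of a probe were averaged and levels were set relative to the array's 75th percentile. Tests used limma 3.58.1 in R 4.3.3 (package data.table, version 1.17.8) with 1 mean for each of the 4 groups over 12 arrays, 32121 probes and 5 comparisons, and figures were drawn with matplotlib 3.10.9 in Python 3.11.15. The steps were tested on simulated data. A gene was read from its brightest tested probe. From each list at most 4 genes are named for a comparison, called genes with the largest change first, and likeness is the Pearson r to the mean of the centred members. Genes whose values by array are given beside these were chosen after their values were seen. Symbols came from RefSeq accessions (GRCm38.p6), which named 27235 of 55681 probes; the array's own annotation is on another build. The 17 lists, of which the members are 1, were chosen with earlier results of these data known. Alternatives covered scaling, background correction, filters, probes, array series, slide, weights, and arrays left out, one of them (the arrays high in skeletal muscle genes) chosen after seeing the data. The number of arrays and the spread between arrays of a group limit the precision. Signal near background limits it for some listed genes, but all member probes were well above background.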

Additional observations from a re-analysis of the deposited data

How the results depend on the processing

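Over 27 or 28 alternatives per comparison 0 members were called, except H2-DMb1 between depots in WT, where leaving out each array in turn gave 0 to 1 called member. The differences of Ciita in BAT between genotypes, and of H2-DMb1 between depots in both genotypes, kept their sign under all alternatives. So did those of H2-Aa, H2-Ab1, H2-Eb1 and Ciita between depots in Lr11-/- mice, and that of Ciita in the interaction. The signs that changed, as log2 differences, are given for each setting, and the cause was not tested. With quantile normalization the values were H2-Ab1 -0.11, H2-Eb1 -0.028, H2-DMa 0.015, Cd74 -0.13 between genotypes in scWAT, and H2-Ab1 -0.054 for scWAT against BAT genotype effects. With median scaling the values were H2-DMa 0.10 between genotypes in scWAT, and H2-Aa 0.017, H2-Ab1 0.043, H2-Eb1 0.039 between genotypes in BAT. With no scaling the values were Cd74 -0.081 between genotypes in scWAT, and H2-DMa -0.049 for scWAT against BAT genotype effects, and Ciita -0.20 between depots in WT. In the second array series only the values were H2-DMa 0.64, H2-DMb1 0.17, Ciita 0.077 between genotypes in scWAT, and H2-Aa 0.046, H2-Ab1 0.018, H2-Eb1 0.0071, Cd74 0.030 between genotypes in BAT, and H2-DMb1 0.45 for scWAT against BAT genotype effects, and H2-Aa 0.73, H2-Ab1 0.46, H2-Eb1 0.69, H2-DMa 0.53, Cd74 0.53 between depots in WT. Without the 5 arrays high in skeletal muscle genes the values were H2-Aa -0.023, Cd74 -0.16 between genotypes in scWAT, and H2-Aa 0.89, H2-Ab1 0.84, H2-Eb1 0.79, H2-DMa 0.71, H2-DMb1 0.58, Cd74 0.78 between genotypes in BAT, and H2-Aa -0.91, H2-Ab1 -0.76, H2-Eb1 -0.50, H2-DMa -1.08, Cd74 -0.94 for scWAT against BAT genotype effects. With array weights the values were H2-Aa 0.23, H2-Ab1 0.30, H2-Eb1 0.29, H2-DMa 0.088, H2-DMb1 0.015, Cd74 0.19 between genotypes in BAT, and H2-DMa -0.16, Cd74 -0.16 for scWAT against BAT genotype effects. With the slide as a block the values were H2-Aa 0.31, H2-Ab1 0.12, H2-Eb1 0.28, H2-DMa 0.25, Cd74 0.27 between depots in WT, and H2-DMa 0.11, Cd74 0.034 between depots in Lr11-/-. Leaving out each array in turn gave ranges that crossed 0. The ranges were, between genotypes in scWAT H2-Aa -0.10 to 1.19, H2-Ab1 -0.062 to 0.87, H2-Eb1 -0.056 to 1.03, H2-DMa -0.39 to 0.63, H2-DMb1 -1.14 to 0.066, Cd74 -0.25 to 0.84. They were between genotypes in BAT H2-Aa -0.40 to 0.44, H2-Ab1 -0.35 to 0.57, H2-Eb1 -0.37 to 0.56, H2-DMa -0.49 to 0.27, H2-DMb1 -0.57 to 0.30, Cd74 -0.38 to 0.38. They were for scWAT against BAT genotype effects H2-Aa -0.10 to 1.22, H2-Ab1 -0.31 to 0.88, H2-Eb1 -0.20 to 1.04, H2-DMa -0.29 to 0.79, H2-DMb1 -0.87 to 0.34, Cd74 -0.21 to 0.91. They were between depots in WT H2-Aa -0.70 to 0.62, H2-Ab1 -1.07 to 0.12, H2-Eb1 -0.91 to 0.33, H2-DMa -0.66 to 0.42, Cd74 -0.73 to 0.39, Ciita -0.31 to 0.49. The number of all probes called ran from 0 to 7259 between genotypes in scWAT, 0 to 72 in BAT, 0 to 1193 for the interaction, 2361 to 10231 between depots in WT and 0 to 2021 in Lr11-/-. The omission of the 5 arrays high in skeletal muscle genes was chosen after seeing the data. No paired analysis was possible because the labels carry no replicate numbers that the groups share. Precision is limited by 3 arrays a group, by 2 array series and by differences between arrays of a group in muscle, brown fat and leukocyte genes.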
